A study of Homo sapiens with 24 samples.

Results

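RNA levels of the proteasome subunits were examined across 3 TNBC cell lines. Members were taken by name, as every row whose symbol is PSM, a letter from A to G and a number. This gave 48 genes in any of the 4 deposited tables. The Hs578T table held 47 of them among 19283 genes, without PSMB11. The HCC70 table held 47 among 18248, without PSMA8. The depletion table held 48 among 60651, and that of the overexpression experiment 46 among 23792, without PSMA8 and PSMB11. By role, 14 members build the constitutive core, 3 replace its catalytic subunits in the immunoproteasome (PSMB8, PSMB9 and PSMB10), and 17 build the 19S regulatory particle. The others are activators, an inhibitor, assembly chaperones and the subunits of testis (PSMA8) and thymus (PSMB11).

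Poly-A RNA of 24 samples was sequenced, 3 biological replicates for each of 8 conditions. In Hs578T and HCC70, both wild type and untreated, CD24-CD44+ ALDH+ cells (BCSCs, breast cancer stem cells) were compared with cells lacking these markers (non-BCSCs). MDA-MB-231 cells carried a lentiviral control sgRNA (sgCtrl) or KIF20A sgRNA #1 (KIF20A sg1, called a knockdown in the labels), or else empty control vector (EV) or KIF20A overexpression (KIF20A OE). KIF20A is a mitotic kinesin. The depletion rests on 1 sgRNA, no clone is named, and each of the 4 experiments is also 1 batch of the labels, so line, experiment and batch cannot be told apart between tables.

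The proteasome degrades proteins that carry ubiquitin chains. Its 20S core is a barrel of outer alpha rings and inner beta rings, and the protease sites lie on the beta subunits PSMB5 (chymotrypsin-like), PSMB6 (caspase-like) and PSMB7 (trypsin-like). The 19S particle caps the barrel, binds ubiquitin, and unfolds substrates with a ring of ATPases. Under interferon-gamma, and in immune cells at rest, PSMB8, PSMB9 and PSMB10 take the places of PSMB5, PSMB6 and PSMB7, and the PA28 activator (PSME1 and PSME2) opens the barrel, which favors peptides for MHC class I.

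The start sites of 3 members are shown because PSMB9 and PSMB10 passed the test in 2 of the 4 comparisons below, and PSMD5 was nearly absent from 1 group. PSMB8, whose ratio there was larger, held no match to the motifs searched and is not shown. Each line gives the bases before the start site of the gene from RefSeq on GRCh38.p14, 5' to 3' on the strand of the gene, and capitals mark every match to the motifs searched. GENCODE 44 lets the gene PSMB9 begin farther upstream, and for PSMD5 the 29 bases next to the start are left out. PSMB9 lies on chromosome 6 (gene at chr6:32844136-32859851, plus strand; promoter at chr6:32853942-32854191). PSMB10 lies on chromosome 16 (gene at chr16:67934506-67936864, minus strand; promoter at chr16:67936851-67937100). PSMD5 lies on chromosome 9 (gene at chr9:120815496-120842951, minus strand; promoter at chr9:120842952-120843172).
PSMB9: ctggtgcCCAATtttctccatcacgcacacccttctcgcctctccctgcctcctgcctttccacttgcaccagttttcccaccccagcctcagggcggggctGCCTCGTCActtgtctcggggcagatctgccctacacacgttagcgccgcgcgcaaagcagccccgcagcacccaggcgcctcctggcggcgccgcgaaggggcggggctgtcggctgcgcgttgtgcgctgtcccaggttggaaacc
PSMB10: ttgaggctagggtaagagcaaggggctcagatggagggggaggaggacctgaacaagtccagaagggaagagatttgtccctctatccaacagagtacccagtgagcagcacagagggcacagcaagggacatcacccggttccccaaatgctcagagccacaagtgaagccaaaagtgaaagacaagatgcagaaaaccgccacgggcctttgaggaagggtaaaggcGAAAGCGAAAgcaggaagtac
PSMD5: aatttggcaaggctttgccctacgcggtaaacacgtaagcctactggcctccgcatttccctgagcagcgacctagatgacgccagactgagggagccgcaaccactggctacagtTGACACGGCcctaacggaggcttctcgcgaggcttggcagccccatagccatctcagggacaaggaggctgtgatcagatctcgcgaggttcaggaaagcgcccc

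The interferon-stimulated response element core (GAAA, any 2 bases, GAAA) was matched in PSMB10 on the strand of the gene, starting 21 bases before the start site. The antioxidant response element core (TGACNNNGC), known as the site of NRF1 and NRF2 in subunit promoters, was matched in PSMD5 on the strand of the gene at 134 bases and in PSMB9 on the other strand at 148 bases. A CCAAT box was matched in PSMB9 at 243 bases. Over the 250 bases before the start, on both strands, TGACNNNGC occurred in 11 of 42 members with an entry (26.2%) and in 11.0% of 27305 promoters. The interferon-stimulated core occurred in 5 of 42 members (11.9%; PSMA4, PSMB4, PSMB10, PSME2 and PSMG4) against 3.07% of all promoters. CCAAT occurred in 42.9% of members and 33.0% of promoters, and the ETS core CCGGAAG in 23.8% and 8.82%. Matches overlapping one another were counted as present, and a match is a description of these letters.

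The libraries labelled KIF20A OE went against their label as MDA-MB-231 cells, which touches every value taken from them. In these 3 libraries, IRS4, a marker of embryonic kidney lines, was at 1750, 1220 and 1740 CPM and at 0 in each EV library. NT5E, a surface gene of MDA-MB-231 cells, was at 1190, 1270 and 1250 CPM in EV and at 0.125, 0.27 and 0.428 CPM in these libraries. All 5 embryonic kidney markers were higher there (sum 1390 to 1940 CPM against 0 to 0.0476). All 7 MDA-MB-231-type marker genes were lower (sum 364 to 806 against 7040 to 7750). KIF20A itself was at 101, 143 and 124 CPM in EV and at 1350, 269 and 896 CPM under the KIF20A OE label (log2 fold change 2.49, adjusted p = 0.0025 from limma). In sgCtrl and KIF20A sg1 libraries, the kidney markers summed to at most 0.0439. KIF20A was at 153, 173 and 156 in sgCtrl and at 122, 145 and 91.1 in KIF20A sg1 (-0.45, adjusted p = 0.69 from limma), and the difference was -0.27 without KIF20A sg1 replicate 3 (adjusted p = 0.91). Depth was taken as the reads recovered from the values. Per library, it ran from 28189500 to 33715701 for Hs578T and from 24681218 to 33559417 for HCC70. It ran from 41424338 to 51018667 for the sgRNA libraries and from 15971297 to 22182293 for the vector libraries.

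By median TPM, the core lay above the 19S particle in both sorted lines. In Hs578T non-BCSCs, mean TPM (a level per transcript length) of the core ranged from 74.7 for PSMB2 to 512 for PSMA7, with a median of 270. The 19S particle had a median of 166 TPM, from 6.86 for PSMC1 to 368 for PSMD2, a scaffold of its base. Assembly chaperones of the 19S base had a median of 52.2 TPM, and PSMF1, the inhibitor PI31, was at 47.1 TPM. In HCC70 non-BCSCs, the median was 232 TPM for the core and 129 TPM for the 19S particle, with PSMB4 (577 TPM) and PSMD2 (439 TPM) highest. The immunoproteasome was at 4.57 TPM for PSMB9 and 73.2 TPM for PSMB10 in Hs578T, and at 16.1 and 88.1 TPM in HCC70. The subunits of testis and thymus were at 1 read or less in every library of the sorted lines.

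The TPM of PSMB8 and PSMB9 was low relative to their reads. The gene length implied by TPM in Hs578T was 12.5 times the canonical transcript for PSMB8 and 8.14 times for PSMB9. The 44 other members with a value had a median of 1.02 and ranged from 0.276 to 1.7. Genes of the MHC region, PSMB8 (chr6:32840717-32844679, minus strand) and PSMB9 among them, had a median of 7.07 over 90 genes, and genes elsewhere 1.0. Levels were therefore also taken as reads per kilobase of canonical transcript, scaled to equal depth, a scale chosen after these lengths were seen. On it, Hs578T non-BCSCs held 49.5 of PSMB8, 15.7 of PSMB9 and 31.5 of PSMB10, with a core median of 116. HCC70 non-BCSCs held 121 of PSMB8, 54.4 of PSMB9 and 37.3 of PSMB10, with a core median of 101. PSMB8 thus lay above the core median in HCC70 on this scale, whereas by TPM it lay far below. The median of the 3 immunoproteasome subunits, 31.5 in Hs578T and 54.4 in HCC70, lay above that of the 20S assembly chaperones (25.6 and 26.6) and, in HCC70, above that of the 19S lid (38.2). Some levels differed widely between tables, and the causes were not tested. PSMC1 is an ATPase with 13 named pseudogenes, and 4667 of its 6129 exon bases overlap NRDE2 on the opposite strand. Its implied length in Hs578T was 0.357 times the canonical transcript. PSMC1 was at 1.03 per kilobase in Hs578T non-BCSCs and 16.8 in sgCtrl. PSMA2, whose exons overlap those of an unnamed gene on the same strand, was at 130 and 0.194.

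Relative to their constitutive partners, immunoproteasome subunits were highest in HCC70. Per kilobase, PSMB8 was at 48.6%, 51.1% and 45.5% of PSMB5 in the Hs578T non-BCSC libraries. In HCC70 non-BCSCs, it was at 106%, 95.5% and 108%, a share that depends on the lengths used. The implied length in HCC70 was 1.39 times the canonical transcript for PSMB5 and 12.6 times for PSMB8. In the MDA-MB-231 controls, PSMB8 was at 39.3%, 44.1% and 40.4% of PSMB5 in sgCtrl and at 38.4%, 28.0% and 33.7% in EV. PSMB9 was at 10.8%, 10.7% and 9.41% of PSMB6 in Hs578T non-BCSCs, and at 79.9%, 64.0% and 68.6% in HCC70. It was at 25.8%, 26.5% and 19.8% in sgCtrl but at 7.37%, 7.45% and 5.25% in EV, the same line in another table. For PSMB10 over PSMB7, the share was 26.9%, 28.4% and 27.6% in Hs578T non-BCSCs, 55.2%, 51.4% and 48.5% in HCC70, and 6.88%, 5.22% and 2.06% in sgCtrl. The HCC70 non-BCSC libraries lay above those of every other control group for PSMB8, PSMB9 and PSMB10. Both MDA-MB-231 controls differed from each other for PSMB8 and PSMB9 without overlap, line is also batch and table here, and no test was made. Leukocytes, which carry the immunoproteasome without interferon, are marked by PTPRC (CD45), which was at most 0.189 TPM in the sorted lines. The 5 leukocyte markers summed to 3.43 to 4.61 TPM in Hs578T non-BCSCs and to 103 to 127 TPM in HCC70 non-BCSCs, where CD14 alone gave 94.8 to 119 TPM; in BCSCs they summed to 3.54 to 4.14 and to 90.9 to 98.4 TPM. The part of these cells in the values was not tested.

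**Figure D1:**
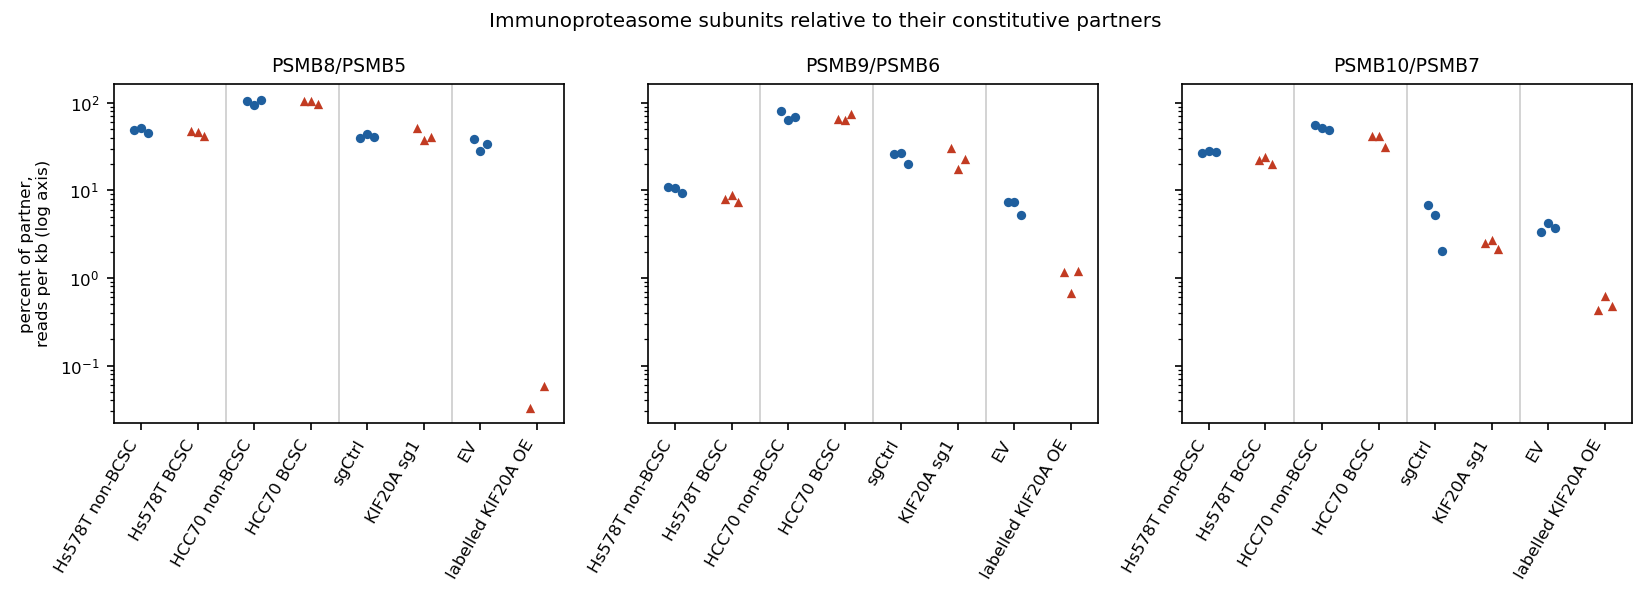
Reads per kilobase of PSMB8, PSMB9 and PSMB10 as a percent of PSMB5, PSMB6 and PSMB7 (log axis), 1 point per library in each of the 8 groups. HCC70 lies highest for each pair, and the libraries labelled KIF20A OE lowest; the 1 library there with no PSMB8 read is not drawn.

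In Hs578T, PSMB9 and PSMB10, subunits of the immunoproteasome, were lower in sorted BCSCs than in non-BCSCs. They were the only members of the 46 tested that passed at an adjusted p under 0.05 (limma), and their share was near that of all genes. Of the 13324 genes tested, 2.9% were higher and 4.26% lower (7.15% in either direction). Whether the immunoproteasome differed from the core or the 19S particle was not tested. PSMB9 was at 4.54, 4.69 and 4.46 TPM in non-BCSCs and at 3.29, 3.2 and 3.36 TPM in BCSCs, with all BCSC libraries lower (log2 fold change -0.38, SE 0.07, adjusted p = 0.017). PSMB10 was at 70.9, 73.8 and 75 TPM and then at 58.1, 60.2 and 57.4 TPM, again without overlap (-0.32, SE 0.04, adjusted p = 0.0064). PSMB8, the third immunoproteasome subunit, was at 9.22, 9.84 and 9.13 TPM in non-BCSCs and 8.87, 7.67 and 8.6 TPM in BCSCs. Its groups did not overlap, but its difference did not pass (-0.15, SE 0.07, adjusted p = 0.24). PSMB9 rests on 353 to 522 reads per library and PSMB10 on 751 to 1053, and 39.4% of the exon bases of PSMB10 are shared with an unnamed gene on the same strand.

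The call of PSMB9 depended on single libraries. Without non-BCSC replicate 1 or 2, or without BCSC replicate 1, its adjusted p was 0.057, 0.093 and 0.074, with fold changes of -0.38, -0.36 and -0.38, and the count of members lower was then 1. Without BCSC replicate 3, 4 members were lower. BCSC replicate 2 was the lowest library for 26 of 46 members (56.5%), where it was lowest for 29.9% of all genes tested. Without it, both calls held and the median of the members was 0.00.

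PA28, the activator that works with the immunoproteasome, showed differences of similar direction that did not pass by limma. PSME2 was at 342, 336 and 337 TPM in non-BCSCs and 288, 270 and 313 TPM in BCSCs (-0.22, SE 0.06, adjusted p = 0.06), and its groups did not overlap. PSME1 was at 225, 233 and 226 TPM and at 201, 182 and 215 TPM (-0.2, SE 0.06, adjusted p = 0.11). On recovered reads, edgeR and DESeq2 each counted 4 members lower, these activator genes with PSMB9 and PSMB10. More genes were lower there in all, 833 by edgeR and 681 by DESeq2 against 567 of 13324 by limma.

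The constitutive partners did not pass the test. PSMB5 was at 172, 174 and 181 TPM in non-BCSCs and 171, 148 and 187 TPM in BCSCs. PSMB6 was at 328, 342 and 369 TPM and at 322, 279 and 356 TPM. PSMB7 was at 264, 259 and 271 TPM and at 260, 252 and 285 TPM. These groups overlapped for each of the 3 genes. Over roles, the median log2 fold change was -0.32 for the immunoproteasome, -0.07 for the 14 core subunits, -0.01 for the 17 subunits of the 19S particle and -0.04 over all members, beside -0.01 over all genes. At an unadjusted p under 0.05, 0 members were higher and 7 lower, with 8.98% and 13.5% of all genes. By separation of the groups, 4 were higher and 9 lower, with 12.0% and 17.0% of all genes. Of 27 tested genes of a list of other proteasome and ubiquitin genes, 0 passed (limma; 1 lower at an unadjusted p under 0.05). Of 13 MHC class I and interferon genes, ERAP2 (216, 210 and 192 TPM, then 178, 171 and 177 TPM) and IRF1 (31.5, 31.9 and 32.5 TPM, then 28.4, 25.7 and 27.7 TPM) were lower, by -0.23 and -0.22 with adjusted p of 0.042 and 0.038. B2M, TAP1 and the other 9 did not pass. Of the 13, 4 were lower and 0 higher at an unadjusted p under 0.05, with a median of -0.1. As for any bulk RNA, fewer cells of a type and less RNA per cell cannot be told apart.

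**Figure D2:**
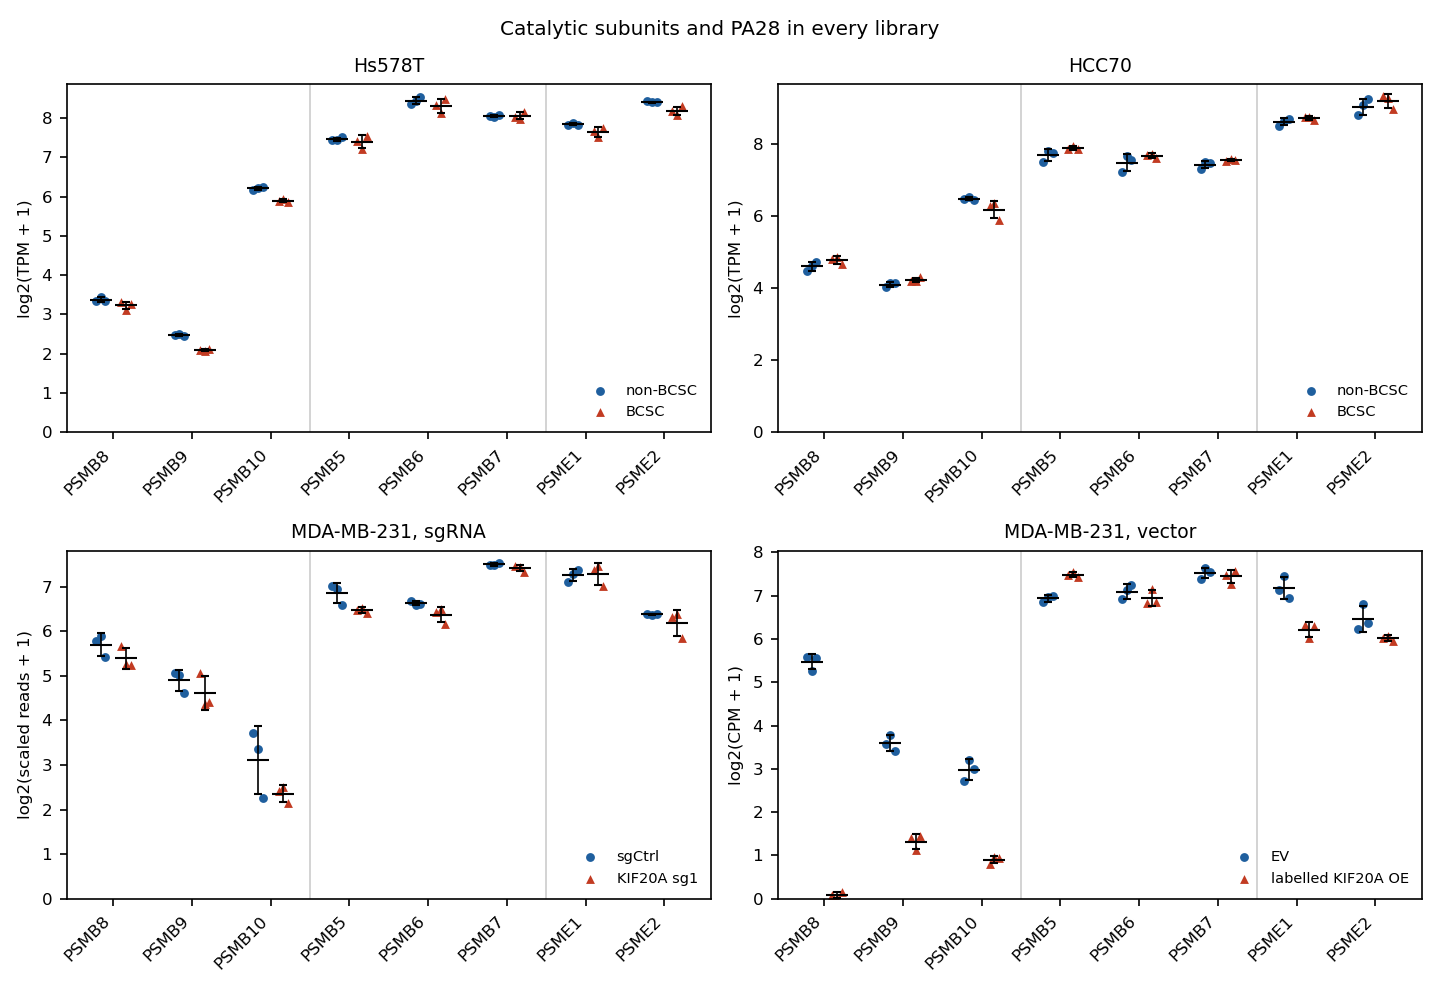
Values of the catalytic subunits and PA28 in every library of the 4 experiments, as log2(value + 1) of TPM, scaled reads or CPM on axes that start at 0, with 1 point per library. PSMB9 and PSMB10 of Hs578T BCSCs lie below all non-BCSC libraries, and PSMB8 of the libraries labelled KIF20A OE lies near 0.

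In HCC70, no member passed the adjusted threshold in either direction by limma, where 2.28% of the 13218 genes tested were higher and 0.552% lower, 2.83% in all. At an unadjusted p under 0.05, 9 members were higher and 3 lower, beside 16.0% and 7.74% of all genes. Members of the ubiquitin-binding base and the beta ring gave the largest positive values. PSMD4, a ubiquitin receptor of the 19S base, was at 260, 294 and 318 TPM in non-BCSCs and 347, 370 and 331 TPM in BCSCs (log2 fold change 0.27, SE 0.08, adjusted p = 0.11). PSMB3, a structural beta subunit, was at 183, 223 and 220 TPM and at 246, 264 and 238 TPM (0.26, adjusted p = 0.12). PSMC3, an ATPase of the base, was at 213, 261 and 259 TPM and at 282, 297 and 273 TPM (0.22, adjusted p = 0.17). PSMB4, another structural beta subunit, was at 506, 632 and 594 TPM and at 659, 670 and 674 TPM (0.22, adjusted p = 0.18). Groups of these 4 members did not overlap, and non-BCSC replicate 1 was lowest in each. It was the lowest library for 23 of the 46 members, where it was lowest for 26.1% of all genes, and without it 4 members were higher at an unadjusted p under 0.05. Across the libraries left out in turn, this count was 3 to 11. It was 4 without BCSC replicate 1 and 3 without BCSC replicate 2, and under the median of ratios, a rescaling, it was 2 higher and 6 lower.

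Negative values with an unadjusted p under 0.05 in HCC70 were those of PSMB10, PSMD6 and PSMA1. PSMB10 was at 87, 91.4 and 86.1 TPM in non-BCSCs and 76.8, 80.3 and 58.5 TPM in BCSCs (-0.3, SE 0.11, adjusted p = 0.16). All BCSC libraries lay lower, and replicate 3 lay farthest; without it the difference was -0.16 (adjusted p = 0.2). PSMD6, a lid subunit, was at 67.7, 61.6 and 64.9 TPM and at 56.1, 56.8 and 55.2 TPM (-0.2, SE 0.05, adjusted p = 0.082). It passed on recovered reads, with an adjusted p of 0.048 by edgeR and 0.024 by DESeq2. PSMA1, an alpha subunit with 26.7% of its exon bases shared with another gene on its strand, was at 98.2, 99.6 and 102 TPM and at 94.4, 88.9 and 92.2 TPM (-0.12, adjusted p = 0.19).

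PSMB8 and PSMB9 did not pass in HCC70 and had positive values. PSMB8 was at 21.1, 23.5 and 25.3 TPM in non-BCSCs and 27, 28.3 and 24.4 TPM in BCSCs (0.18, adjusted p = 0.23). PSMB9 was at 15.2, 16.5 and 16.5 TPM and at 17.3, 17.3 and 18.7 TPM (0.14, adjusted p = 0.25), and its groups did not overlap. Their constitutive partners had values of like size. PSMB5 was at 180, 223 and 213 TPM and at 233, 244 and 230 TPM (0.2, adjusted p = 0.19). PSMB6 was at 148, 201 and 187 TPM and at 205, 211 and 194 TPM, and PSMB7 at 157, 178 and 177 TPM and at 184, 192 and 187 TPM. The share of PSMB8 over PSMB5 in BCSCs was 105%, 105% and 96.1%, within the range of the non-BCSC libraries. For PSMB10 over PSMB7 it was 41.6%, 41.8% and 31.3%, below each non-BCSC library. In PA28, PSME1 was at 362, 400 and 409 TPM and at 431, 432 and 403 TPM, and PSME2 at 443, 539 and 600 TPM and at 642, 613 and 499 TPM, with overlap in both.

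By role, the median log2 fold change in HCC70 was 0.05 for the core, 0.07 for the 19S particle, 0.14 for the immunoproteasome and 0.07 over all members, beside 0.02 over all genes. The 20S assembly chaperones, PSMG1 to PSMG4, had a median of -0.13. Separation of the groups was seen for 14 members higher and 3 lower, with 20.9% and 10.1% of all genes. Of 27 other proteasome and ubiquitin genes, 0 passed by limma. At an unadjusted p under 0.05, 8 were higher and 2 lower, beside 16.0% and 7.74% of all genes. NFE2L1, which encodes NRF1, the factor that drives subunit genes when the proteasome is impaired, was at 141, 169 and 173 TPM and at 200, 204 and 190 TPM (0.3, adjusted p = 0.089). It was named after its values were seen. Of 13 MHC class I and interferon genes, HLA-E was higher, at 33.6, 34.8 and 35.1 TPM in non-BCSCs and 41.2, 42.8 and 41 TPM in BCSCs (0.27, adjusted p = 0.045), and the other 12 did not pass. Of the 13, 8 were higher and 0 lower at an unadjusted p under 0.05, beside the same 16.0% and 7.74%, with a median of 0.18.

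The BCSC effect on PSMB9 differed between the lines. In a model of the 12 sorted libraries, the effect in HCC70 minus that in Hs578T was 0.52 on the log2 scale (SE 0.08, adjusted p = 0.0057 from limma), the value of 0.14 in HCC70 standing against -0.38 in Hs578T. It was the only member of 46 that passed, where 7.11% of 11668 genes tested did. With each library left out in turn, its difference was 0.48 to 0.54 and passed each time, and the count of members was 2 without HCC70 non-BCSC replicate 3 and 3 without Hs578T BCSC replicate 3. PSMB8 differed by 0.33 (SE 0.11, adjusted p = 0.085) and PSME1 by 0.31 (adjusted p = 0.065). PSMB10, lower in the BCSCs of Hs578T and of negative value in HCC70, differed by 0.01 (SE 0.13, adjusted p = 0.96). At an unadjusted p under 0.05, 17 members differed, 15 of them with the larger value in HCC70, beside 26.8% of all genes. The median difference was 0.11 over the members and 0.04 over all genes.

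**Figure D3:**
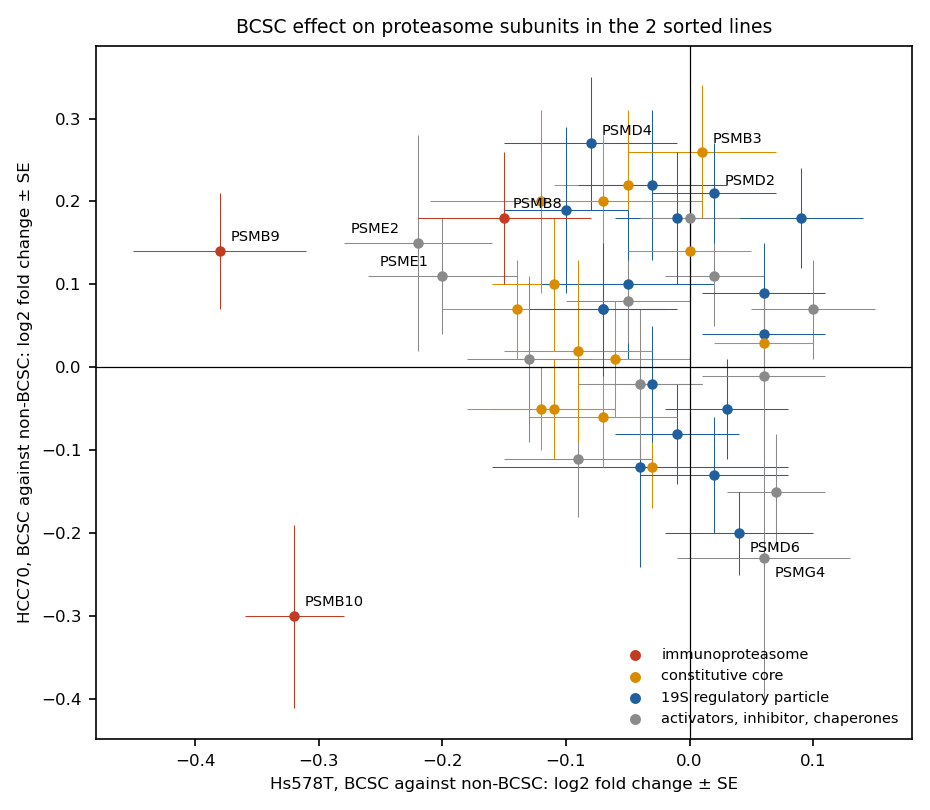
Log2 fold change of BCSCs against non-BCSCs in Hs578T (x axis) and HCC70 (y axis), 1 point per member with its SE and colored by role. PSMB10 is negative in both lines, and PSMB9 is at -0.38 in Hs578T and 0.14 in HCC70.

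Under depletion of KIF20A, 0 of the 45 members tested passed at an adjusted p under 0.05 by limma, as did 0.0% of the 12852 genes tested. At an unadjusted p under 0.05, 0 members were higher and 2 lower, beside 2.28% and 4.72% of all genes. edgeR called 0 members, and DESeq2 called 0 members but 2 genes higher and 9 lower elsewhere. PSMB10 was at 12.1, 9.26 and 3.77 scaled reads (reads divided by 1 factor per library) in sgCtrl and at 4.33, 4.7 and 3.43 in KIF20A sg1 (log2 fold change -0.75, SE 0.31, adjusted p = 0.69). PSMB5 was at 128, 123 and 95.7 in sgCtrl and at 88.7, 91.5 and 83.6 in KIF20A sg1 (-0.38, SE 0.13, adjusted p = 0.69). In both, sgCtrl replicate 3 lay nearest to the depleted libraries. Without it, both were lower, PSMB10 by -1.18 (adjusted p = 0.038) and PSMB5 by -0.51 (adjusted p = 0.046), as were 137 genes in all, with 7 higher. At an unadjusted p under 0.05, 8 members were then higher and 8 lower. The share of all genes at that threshold was not taken for this fit, and the 2.28% and 4.72% are those of the full fit.

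Other catalytic subunits had negative values in the depleted cells that did not pass. PSMB8 was at 54.2, 58.6 and 41.6 scaled reads in sgCtrl and 49.5, 37.5 and 37.1 in KIF20A sg1 (-0.31, adjusted p = 0.7). PSMB9 was at 32.4, 31.3 and 23.6 and at 32.2, 19.6 and 20.3 (-0.29, adjusted p = 0.76). PSMB6 was at 102, 95.8 and 96.7 and at 85.8, 90.1 and 71.2 (-0.26, adjusted p = 0.69). The groups of PSMB6 did not overlap, and those of PSMB8 and PSMB9 did. With each library left out in turn, PSMB8 was at -0.45 to -0.21, PSMB9 at -0.51 to -0.17 and PSMB6 at -0.32 to -0.16. PSMB7 was at 177, 179 and 184 and at 175, 173 and 160 (-0.09). For PA28, PSME1 was at 137, 155 and 165 and at 166, 175 and 128, and PSME2 at 82.6, 81.6 and 82.6 and at 78.6, 82.8 and 57. The share of PSMB8 over PSMB5 per kilobase was 51.8%, 38.1% and 41.2% in KIF20A sg1, around that of sgCtrl.

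Separation of the groups was seen for 12 of 45 members lower and 0 higher, beside 7.3% and 5.73% of all genes. KIF20A sg1 replicate 3 was the lowest library for 20 of the 45 members (44.4%, against 17.6% of all genes), and sgCtrl replicate 3 the highest for 19 (42.2%, against 20.9%). The 12 that were separated included the 3 constitutive catalytic subunits, 3 ATPases and PSMA7. The median log2 fold change was -0.31 for the immunoproteasome, -0.26 for the constitutive catalytic subunits, -0.1 for the core and -0.01 for the 19S particle, with -0.06 over all members and 0.0 over all genes. Of the 30 other proteasome and ubiquitin genes and of the 13 MHC class I and interferon genes, 0 passed by limma and 0 at an unadjusted p under 0.05. Leukocyte markers summed to 9.35 to 13.2 in sgCtrl and 6.87 to 8.65 in KIF20A sg1, with CD3E at 0 in every library, and their part in the values was not tested.

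**Figure D4:**
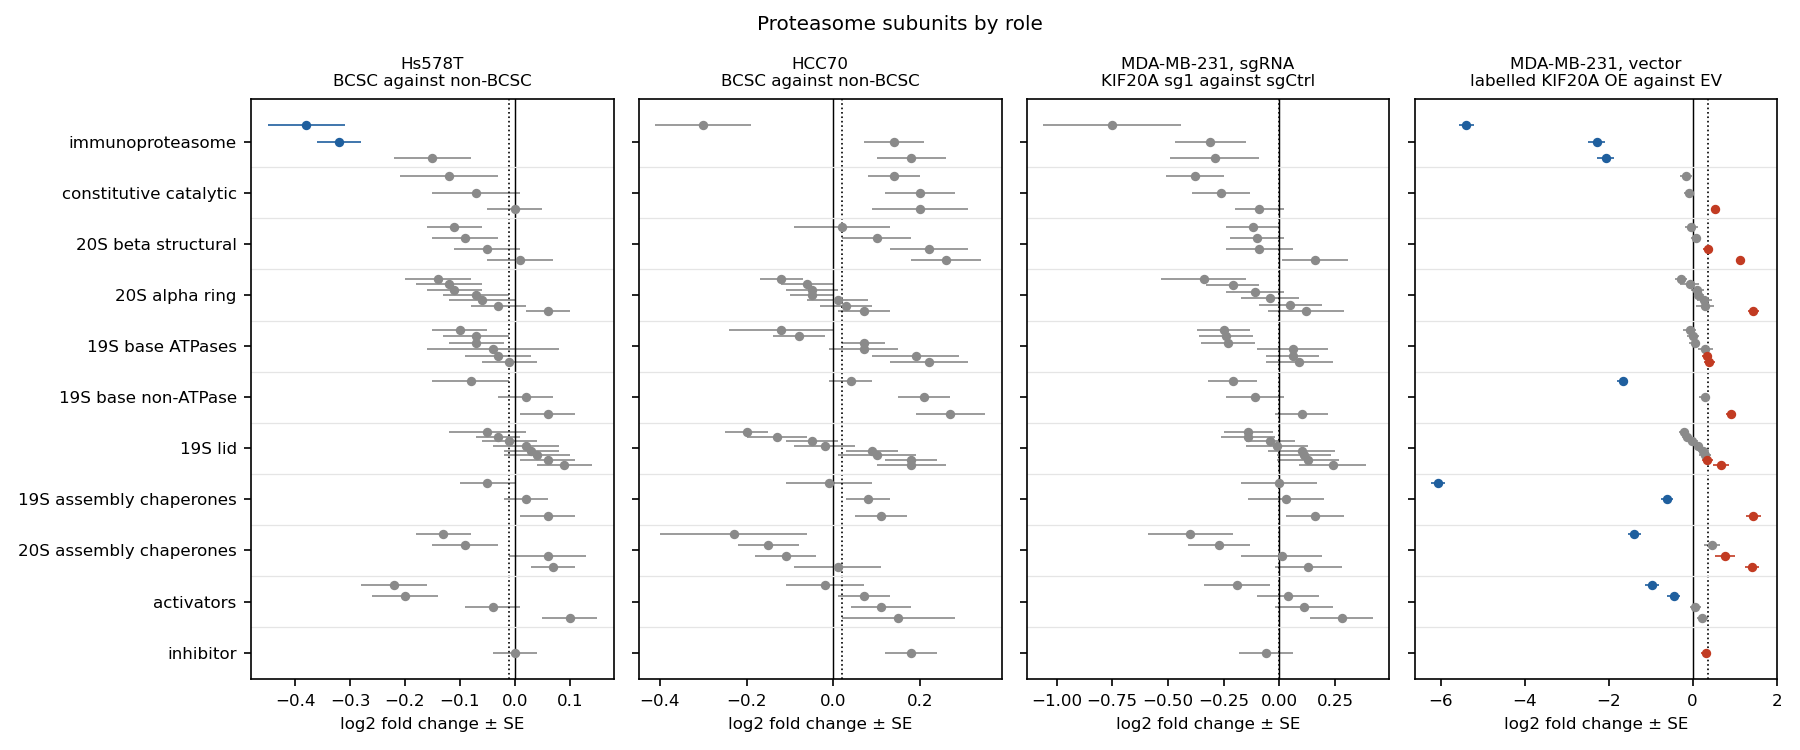
Log2 fold change with its SE of each member tested in the 4 comparisons, in rows by role; red and blue points are higher and lower at an adjusted p under 0.05, and the dotted line is the median of all genes. The immunoproteasome row holds the lower calls in Hs578T, and no point is colored in HCC70 or under depletion.

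Libraries labelled KIF20A OE nearly lacked the RNA of PSMB8 and of PSMD5, which was present in every EV library. Of the 46 members, 13 were higher and 9 lower than in EV, where 46.2% of the 15265 genes tested were higher and 23.4% lower (limma; 69.7% in all). The groups did not overlap for 15 members higher and 9 lower, beside 48.9% and 25.2% of all genes. The median of all genes was 0.37 on the log2 scale under the deposited scaling and 0.04 under the median of ratios, and that of the members was 0.12 and -0.24. The split of calls followed it. Members higher and lower were 5 and 18 under the median of ratios, 5 and 16 by edgeR, and 5 and 18 by DESeq2. Over all 15265 genes, these counts were 5218 and 4968, 5099 and 4832, and 5230 and 4955 in the same order. Among the 4 fits, 17 members changed sign. Only members with the same call in all 4 fits are given a direction here, 5 higher and 9 lower. The share of all genes with the same call in all 4 fits was not taken. Whether these counts differ from it is therefore not known. All differences are between libraries that also differ in the markers of embryonic kidney and MDA-MB-231-type cells given above, and the effect of KIF20A and that difference cannot be told apart.

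The immunoproteasome was lower throughout. PSMB8 was at 47.2, 37.6 and 46 CPM in EV and at 0.0626, 0 and 0.107 CPM under the KIF20A OE label, which is 3 reads against 2550. Scaled by depth, this was 823-fold lower, with a 95% interval of 281 to 3990 that covers counting error only. PSMB9 was at 10.9, 12.8 and 9.7 CPM and at 1.63, 1.17 and 1.71 CPM (-2.28, SE 0.2, adjusted p = 2.1e-05). PSMB10 was at 5.62, 8.26 and 6.94 CPM and at 0.751, 0.947 and 0.91 CPM (-2.07, SE 0.2, adjusted p = 3.6e-05). None of these groups overlapped. Under the KIF20A OE label, PSMB9 rests on 26, 26 and 32 reads and PSMB10 on 12, 21 and 17 reads. By edgeR, the log2 fold changes of PSMB9 and PSMB10 were -3.24 and -3.33. The share of PSMB9 over PSMB6 was 7.37%, 7.45% and 5.25% in EV and 1.18%, 0.67% and 1.21% in the libraries labelled KIF20A OE, and that of PSMB10 over PSMB7 was 3.39%, 4.21% and 3.76% and then 0.426%, 0.618% and 0.484%. PA28 was lower as well. PSME1 was at 138, 174 and 123 CPM and at 79, 63.6 and 77.4 CPM (-0.97, adjusted p = 0.00071). PSME2 was at 74.3, 111 and 81.4 CPM and at 64.3, 66.6 and 61.2 CPM (-0.45, adjusted p = 0.035). The call of PSME2 was lost without EV replicate 2 (adjusted p = 0.089) and without KIF20A OE replicate 1, 2 or 3 (0.082, 0.065 and 0.1).

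PSMD5, a chaperone in the assembly of the 19S base whose promoter is shown above, was at 85.2, 87.3 and 84 CPM in EV and at 0.376, 0.225 and 0.268 CPM under the KIF20A OE label. With 5025 reads against 16, the ratio was 304-fold lower (95% interval 187 to 532, counting error only). In the depletion experiment on MDA-MB-231, PSMD5 was at 91.2 to 122 scaled reads in sgCtrl and 115 to 118 in KIF20A sg1. PSMD2, PSMG2 and PSMD9 were also lower in all 4 fits, and are named after their values were seen. PSMD2, a scaffold of the base, was at 851, 1050 and 886 CPM and at 271, 286 and 314 CPM (-1.67, adjusted p = 8.4e-06). PSMG2, a chaperone of the alpha ring, was at 71.7, 88.5 and 99.5 CPM and at 31.7, 34.7 and 29.8 CPM (-1.39, adjusted p = 7.3e-05). PSMD9, another base chaperone, was at 32.6, 32.4 and 36.4 CPM and at 20.2, 22.8 and 22.4 CPM (-0.61, adjusted p = 0.0042).

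The 5 members higher in all 4 fits came from different parts of the complex. PSMA4, an alpha subunit, was at 97.3, 120 and 104 CPM in EV and at 295, 277 and 307 CPM under the KIF20A OE label (1.45, adjusted p = 1.4e-05). PSMD10 (gankyrin), a chaperone of the base like PSMD5, was at 64, 72.3 and 46.4 CPM and at 171, 144 and 178 CPM (1.44, adjusted p = 0.00015). PSMG1, which forms a pair with PSMG2, was at 21.2, 30.1 and 28.2 CPM and at 66.6, 68.7 and 81.4 CPM (1.42, adjusted p = 0.00011). PSMG1 and PSMG2 thus went in opposite directions, as did PSMD10 and PSMD5. PSMB4 was at 144, 151 and 147 CPM and at 327, 345 and 309 CPM (1.14, adjusted p = 2.2e-05). PSMD4, named after its values were seen, was at 131, 140 and 117 CPM and at 269, 231 and 233 CPM (0.91, adjusted p = 0.0002).

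The constitutive catalytic subunits depended on the scaling. PSMB5 was at 114, 125 and 127 CPM in EV and at 176, 186 and 172 CPM under the KIF20A OE label (0.54, adjusted p = 0.0017), but at 0.18 under the median of ratios (adjusted p = 0.13). PSMB6 was at 120, 139 and 150 CPM and at 112, 142 and 115 CPM, and PSMB7 at 167, 198 and 186 CPM and at 178, 154 and 190 CPM. Neither passed as deposited, and under the median of ratios both were lower (-0.51 and -0.45, adjusted p = 0.0068 and 0.012). The median was 0.12 for the core, 0.25 for the 19S particle and -2.28 for the immunoproteasome. The count of members higher was 8 without EV replicate 1, 8 without KIF20A OE replicate 2 and 7 without KIF20A OE replicate 3. KIF20A OE replicate 2 was the highest library for 24 of the 46 members (52.2%, against 26.0% of all genes), and EV replicate 1 the lowest for 22 (47.8%, against 31.0%). As deposited, 14 of the 30 other proteasome and ubiquitin genes were higher and 8 lower by limma, beside 46.2% and 23.4% of all genes. Of 13 MHC class I and interferon genes, 9 were lower and 0 higher, among them TAPBP (382, 254 and 298 CPM, then 52.3, 47.2 and 61.8 CPM) and HLA-E (686, 437 and 505 CPM, then 108, 102 and 127 CPM), with adjusted p of 5.6e-06 and 1.2e-05. These were named after their values were seen. Leukocyte markers summed to 1.16 to 5.76 CPM in EV and 9.26 to 9.83 CPM in those labelled KIF20A OE, where PTPRC was at 0.

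**Figure D5:**
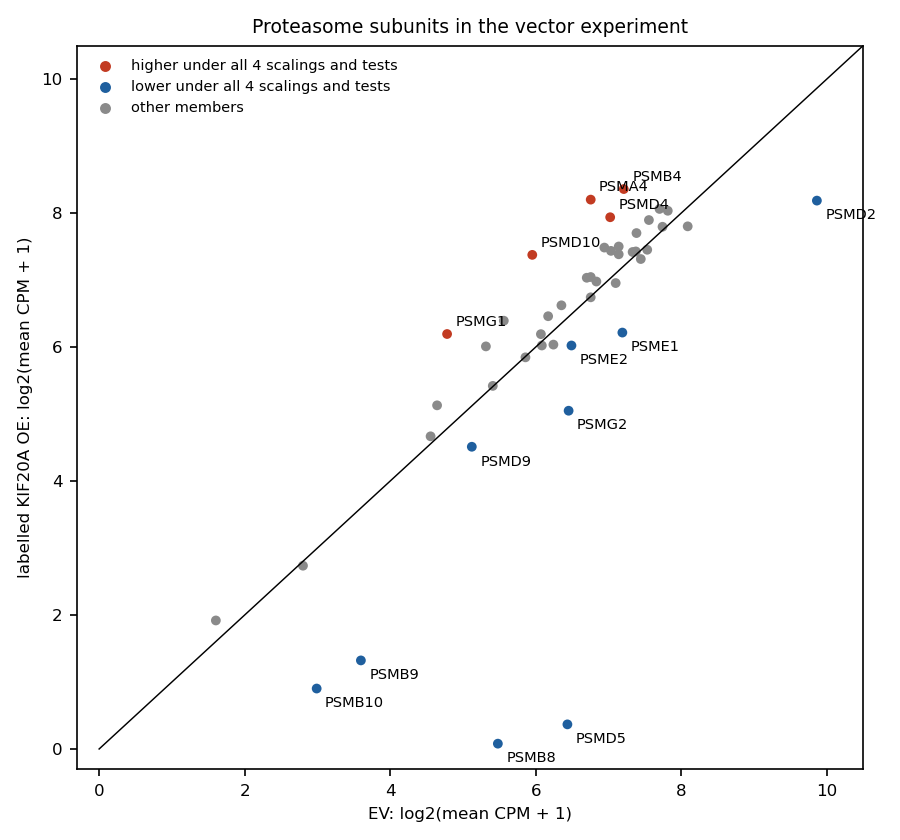
Mean CPM of each member in EV (x axis) and in the libraries labelled KIF20A OE (y axis), both as log2(mean + 1), with colored points for members with the same call under all 4 scalings and tests. PSMB8 and PSMD5 lie near 0 on the y axis, and most members lie near the diagonal.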

How the data were processed

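Poly-A RNA of 24 libraries was sequenced as paired-end reads on stranded libraries. The submitters' processing notes name GRCh38, HISAT2 2.0.5 and featureCounts 1.5.0-p3. The authors deposited TPM, values per length scaled to an equal total, for Hs578T and HCC70, and CPM for the overexpression experiment. The deposited depletion table, named CPM by the authors, holds a signal of reads divided by 1 factor per library.

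In each table, genes whose 6 libraries averaged 1 or more were tested on log2(value + 1) by limma 3.58.1 with a trend in R 4.3.3. Tests were two-sided and adjusted by Benjamini-Hochberg over all genes tested. Fold changes are on this scale, which understates those of low genes. A model of 12 libraries tested fraction by line. Whole reads were recovered for 100% of values in the depletion and overexpression experiments (tolerance 0.02). From TPM, they were recovered for 100% of genes as the smallest whole numbers in the ratio of the libraries, under a narrower tolerance. On these reads, edgeR 4.0.16 and DESeq2 1.42.0, the tool of the study's methods, were run. In TPM, some genes may have reads divided by a common divisor. Other alternatives were a pseudocount of 0.1, no minimum or one of 10, the median of ratios, a replicate block and leaving out each library. The limma fit was also run on simulated reads with as many genes raised as lowered. The vector experiment differs from that setting, so this run does not bear on its calls.

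Named were the catalytic subunits, PA28, KIF20A and the 4 members that rose and fell most among those that passed (unadjusted where none did), besides those said to be named later. The members and lists were chosen with earlier results of these data known. Coordinates come from GENCODE 44, which may differ from the authors' annotation. Intervals cover counting error only. There were 0 sample columns left unused. Python 3.11.15 (pandas 2.3.3, numpy 2.4.6, matplotlib 3.10.9) was used for tables and plots.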

Additional observations from a re-analysis of the deposited data

Results flagged for a closer look

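The BCSC effect on PSMB9 differed between the sorted lines by 0.52 on the log2 scale (SE 0.08, adjusted p = 0.0057 from limma over 11668 genes), by a test of the difference itself. PSMB9 was lower in all 3 BCSC libraries of Hs578T and above all non-BCSC libraries in 3 of 3 BCSC libraries of HCC70. Under the alternatives that kept the gene, the adjusted p was 0.0038 to 0.032. PSMB9 had between 353 and 522 reads in a Hs578T library and between 1278 and 1924 in a HCC70 library, and 5.21% of its exon bases overlap PSMB8-AS1 on the same strand. Cell line is also batch and table, and these cannot be told apart.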

How the results depend on the processing

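In Hs578T, the count of members lower, 2 as reported, was 4 by edgeR, 4 by DESeq2 and 1 to 4 with a library left out, and the median of the members was then -0.07 to 0.00. With a library left out, PSMB5 in Hs578T was at -0.14 to 0.02 (0.02 without BCSC replicate 2) and PSMB7 at -0.05 to 0.04 (-0.01 and -0.05 where it was negative). In HCC70, edgeR and DESeq2 each called 1 member lower. The log2 ratio of PSMB8 to PSMB5 in BCSCs against non-BCSCs of HCC70 was -0.07 to 0.03 with a library left out, and that of PSMB9 to PSMB6 was -0.12 to 0.04. Under depletion, 0 to 2 members were lower, with PSME1 at -0.05 to 0.17, the first ratio at -0.06 to 0.16 and the other at -0.24 to 0.15. In the vector experiment, the count higher (13) was 5 under the median of ratios, 5 by edgeR, 5 by DESeq2 and 7 to 16 with a library left out. The count lower (9) was 18, 16 and 18, and 8 to 10. The median of the members was -0.24, -0.23 and -0.23, and 0.05 to 0.17. These fits moved the median of all genes from 0.37 to 0.04, 0.05 and 0.05. PSMB7 there was at -0.15 to 0.00. The ratio of PSMB8 to PSMB5 has no value there, since 1 library holds 0 reads of PSMB8. The count of members whose BCSC effect differed between the lines (1) was 0 with a minimum mean of 10, which leaves PSMB9 out, 2 under the median of ratios and 1 to 3 with a library left out. The causes were not tested.

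Replicate numbers were not taken as pairs. Deviations of same-numbered libraries correlated at -0.06 to 0.05 in Hs578T, -0.07 to 0.19 in HCC70, -0.16 to -0.05 under depletion and 0.01 to 0.06 in the vector experiment. In the vector experiment, 6 of 6 libraries correlated best with their own number (0, 2 and 0 of 6 elsewhere). With 3 replicates per group, these correlations cannot show whether samples were paired. With the replicate block, 1 member was lower in Hs578T, and PSMB9 had an adjusted p of 0.054; in the vector experiment 12 were higher and 9 lower.

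Of the other results and alternatives, 204 values of counts, medians and ratios and 587 of named genes kept their direction and side of the threshold. Among the counts, medians and ratios, 8 values were reversed, 4 moved, 12 stronger and 11 weaker. Among the named genes, 7 were reversed, 17 stronger and 11 weaker. At 3 reads or fewer, as for PSMB8 in the libraries labelled KIF20A OE, depth allows only a ratio with a wide interval.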
